A study of Mus musculus with 3 samples.

Results

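Type I interferon response genes are the genes that cells switch on when type I interferon binds its receptor. They were taken here as a list of 44 symbols, of which 42 were among the 32285 genes counted in the libraries. Mx1 and Mx2 were not analysed here. The list was given by gene name, and it was chosen with earlier results of these data known. None of the 42 genes served as a marker to sort cells into classes. Removal of haemoglobin-rich barcodes, however, was decided with member levels in view.

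The cells came from the inner lining of the aortic arch, at its lesser curvature, of wildtype C57BL/6J mice 12 to 13 weeks old. Each library pooled cells of 5 to 10 male and female animals. There were 2 libraries of untreated mice (control 1 and control 2) and 1 library of mice given 30 µg of ultrapure lipopolysaccharide (LPS, a bacterial cell wall product) into a vein 18 h before harvest. All mice were perfused with actinomycin D, which stops transcription during tissue handling. Because 1 pool stands for the LPS condition, what differed between that pool and the controls other than LPS cannot be told apart from LPS.

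In textbook outline, LPS binds Toll-like receptor 4, whose adaptor TRIF can lead to the making of interferon beta. Interferon alpha and beta share the receptor of Ifnar1 and Ifnar2, which acts through the kinases Jak1 and Tyk2. These activate a complex that contains Stat2 and Irf9 and binds the interferon-stimulated response element in target promoters. The targets include sensors of foreign RNA and DNA, enzymes that block viral replication, and feedback factors, and several of them also respond to interferon gamma or directly to Irf3.

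RNA was counted as unique molecular identifiers (UMIs, 1 per captured molecule). After filtering, 431, 2697 and 5156 barcodes of control 1, control 2 and the LPS library were kept, and the median kept barcode held 1904, 3944 and 2029 UMIs. A cell entered a class when it held at least 4 different markers of that class and of no other class at the required excess. In the order control 1, control 2, LPS, endothelial-like cells numbered 28, 80 and 133, phagocyte-like cells 64, 175 and 192, those resembling fibroblasts 27, 91 and 132, and lymphoid-like cells (T, NK or innate) 160, 1664 and 88. In each class its own markers made up the largest median share of a cell's UMIs, from 0.777% (endothelial-like cells, LPS) to 2.31% (fibroblast-like cells, control 1). Smooth muscle (mural) markers stood at a median of 0.485% to 1.15% of UMIs in the 4 classes of control 2, against 0.0471% to 0.22% in the LPS library and at most 0.0939% in control 1. Their part in the results was not tested.

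The LPS library stood apart in other ways. It held 3509 barcodes of no named class in which Gm42418 made up at least 40% of the UMIs (median 1896 UMIs and 518 genes) and 693 barcodes with at least 50% haemoglobin UMIs, against 16 and 4 in control 1 and 0 and 316 in control 2. Gm42418 took 11.6% to 21.3% of the UMIs of its 4 classes, 5.32% to 18.7% in control 1 and 1.12% to 2.0% in control 2. In these Gm42418-rich LPS barcodes the 42 genes made up 7219 CPM (counts scaled to the same total in every sum) when haemoglobin and Gm42418 were left out, a level like that of LPS endothelial-like cells (6742 CPM). Whether these barcodes held free RNA or damaged cells was not tested. Per barcode, Gm42418-rich barcodes held 6.32 UMIs of the 42 genes, while endothelial-like cells held 67.6, phagocyte-like cells 71.8, fibroblast-like cells 38.8 and lymphoid-like cells 40.1. The corresponding cell classes of the controls held between 4.95 and 12.2. The lowest mean per barcode of each gene in any class was taken as the ceiling of what free RNA could add. For the median gene that ceiling amounted to 5.51% of its LPS UMIs among endothelial-like cells, 7.37% for the phagocyte-like class, 12.1% for the fibroblast-like class and 9.02% for the lymphoid-like class.

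**Figure D1:**
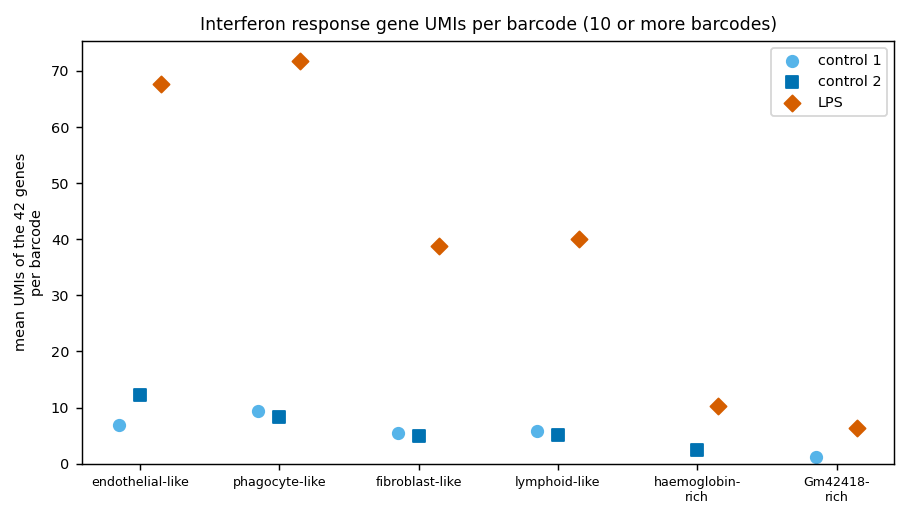
Mean UMIs of the 42 interferon response genes per barcode (y axis) in 4 cell classes and in haemoglobin-rich and Gm42418-rich barcodes (x axis), with 1 point for each library, shown for sets of 10 or more barcodes. The 4 LPS cell classes sit between 38.8 and 71.8, above every control class and above the Gm42418-rich LPS barcodes at 6.32.

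Cells carried more of this RNA one by one, not only in sum. When each cell was thinned to 1000 UMIs, without haemoglobin and Gm42418, the median endothelial-like cell held 1, 1 and 6 UMIs of the 42 genes in control 1, control 2 and the LPS library. The medians were 3, 1 and 9 in phagocyte-like, 3, 1 and 9 in fibroblast-like and 1, 1 and 6 in lymphoid-like cells. Before thinning, the median LPS endothelial-like cell showed 19 of the 42 genes, against 2.5 and 4.5 in the controls. The LPS cells were deeper, with a median of 7501 UMIs against 2127 and 4164.5. After thinning, the median endothelial-like cell showed 1, 1 and 5 of the genes in control 1, control 2 and the LPS library. No LPS cell among 128 endothelial-like, 178 phagocyte-like and 108 fibroblast-like cells was without a UMI of these genes after thinning, and 4 of 88 lymphoid-like cells were, while 28.6% and 30.0% of control endothelial-like cells were. Too shallow to thin were 7, 0 and 5 endothelial-like, 35, 0 and 14 phagocyte-like and 18, 0 and 24 fibroblast-like cells. Free RNA adds to such shares in every cell of a library.

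**Figure D2:**
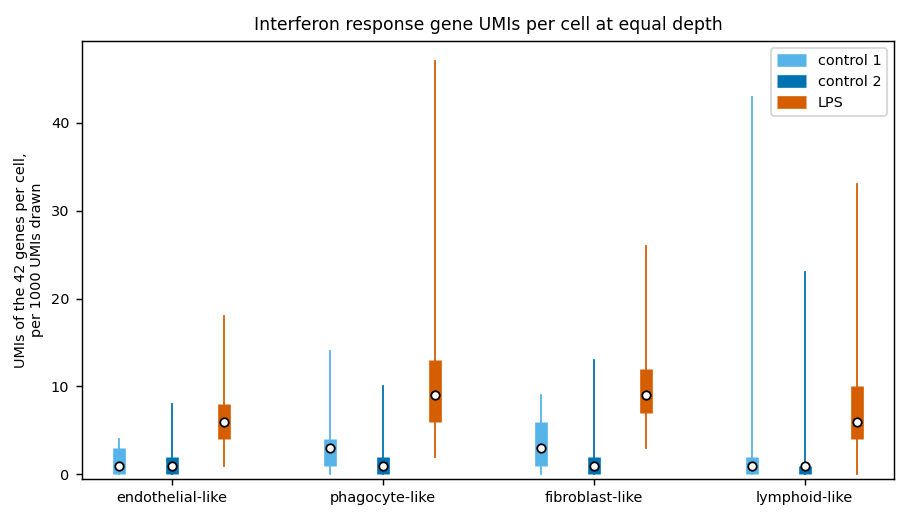
UMIs of the 42 genes per cell after thinning to 1000 UMIs (y axis) by class and library. White points are medians, thick bars run from the first to the third quartile and thin lines from the lowest to the highest cell. LPS medians of 6 to 9 lie above control medians of 1 to 3.

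The first comparison asked how the genes changed after LPS in endothelial-like cells, the lining that the blood-borne agent meets first. Of the 42 genes, 35 passed the filter on low counts and 23 rose (edgeR quasi-likelihood test, adjusted p under 0.05 over 7740 genes), beside 5.81% of all genes tested that rose. None passed in the lower direction. Of the 35, 6 met the filter in the LPS library only, Ifit2, Rsad2, Zbp1, Usp18, Ifi44 and Slfn2, and so had to differ. Among the 29 that met it in a control, 17 rose, beside 4.23% of all such genes, and 27 had an LPS level in CPM above both controls, beside 32.4%. The median log2 fold change of the 29 was 1.46, beside -0.08 for all such genes. These libraries are pools with a single pair of controls, so the p-values measure only the spread between the control libraries, which may be technical. In endothelial-like and phagocyte-like cells edgeR drew that spread from all genes together (infinite prior degrees of freedom). A gene's own difference between the controls carried little weight there.

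The transcription factors of the pathway split. Irf7, the factor that amplifies interferon production, had 0 and 20.1 CPM in the controls and 431 CPM after LPS, on 0, 10 and 603 UMIs. It rose by a log2 fold change of 4.81 ± 0.58 (standard error, SE; adjusted p = 3.15e-14 in edgeR's test). Stat2 measured 82.6, 44.2 and 174 CPM and Irf9 at 16.5, 44.2 and 101 CPM in control 1, control 2 and LPS. Both subunits of the interferon-activated complex rose in the chosen fit, by 1.62 ± 0.49 and 1.46 ± 0.50 on the log2 scale. Neither of them passed in every alternative setting given below. Irf1, which answers above all to interferon gamma, measured 66.1, 107 and 137 CPM without passing (0.57 ± 0.47). Thus Irf7 was the factor with the widest gap between LPS and controls, and the LPS level of Irf1 was only slightly above that of control 2.

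The Ifit genes, which encode proteins that bind foreign RNA at its 5′ end, lie side by side on chromosome 19 (GRCm38). All 4 rose in endothelial-like cells. Ifit1 (chr19:34640871-34650009) measured 8.26, 52.3 and 216 CPM, and Ifit3 (chr19:34583531-34588731) 66.1, 76.4 and 270 CPM. Their log2 fold changes were 2.45 ± 0.50 and 1.89 ± 0.49. Ifit2 measured 0, 8.04 and 40.1 CPM and Ifit3b 0, 34.2 and 73.7 CPM, close to the threshold with adjusted p = 0.0356 and 0.0421 in edgeR's test. Ifit3 and Ifit3b are near copies, 97.8% identical over 1700 aligned positions of their longest GENCODE transcripts, the longer of 2000 bases. Their last 500 bases, the end that this chemistry reads, gave 49.9%. With 1663 of the 1700 aligned positions identical, these end windows were not matching stretches. The 49.9% therefore does not show that the ends of the copies differ in sequence. How far the counting could tell the 2 apart was not tested.

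Isg15, a ubiquitin-like protein that is attached to other proteins, measured 16.5, 52.3 and 387 CPM on 2, 26 and 541 UMIs and rose by 3.22 ± 0.51. Its protease Usp18, which also dampens receptor signalling, had 0, 3 and 64 UMIs, a ratio of 9.44 with a 95% counting interval of 3.09 to 47.0. Herc6, the mouse ligase that attaches Isg15, measured 74.3, 30.2 and 96.6 CPM without passing. Of the pair of partner genes, the Isg15-activating enzyme Uba7 rose (1.79 ± 0.56) and Ube2l6 did not pass.

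Rsad2, which encodes viperin, an enzyme that makes a chain-terminating nucleotide, had the highest fitted change among the 35 genes. It had 1 and 2 UMIs in the controls and 651 after LPS, which is 8.26, 4.02 and 466 CPM. The ratio was 96.0, with a 95% counting interval of 32.7 to 467 (adjusted p = 2.39e-18 in edgeR's test). Its neighbour on chromosome 12, Cmpk2, a nucleotide kinase, moved less, from 24.8 and 22.1 to 63.7 CPM, and did not pass (1.47 ± 0.57). The nuclease gene Isg20 stood at 41.3, 4.02 and 35.8 CPM, so its LPS level lay between the controls, and its log2 difference was -0.19 without control 2. Bst2, whose product tethers budding virus to the cell, was already at 305 and 338 CPM in the controls and reached 516 CPM without passing (0.67 ± 0.45). Samd9l, at 57.8, 94.5 and 121 CPM, did not pass either.

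Sensors of foreign nucleic acid rose in part. Zbp1, which binds Z-form nucleic acid and can start necroptosis, went from 8.26 and 10.1 to 219 CPM, a rise of 4.48 ± 0.60. Ifih1 (the RNA sensor MDA5) and Eif2ak2 (the RNA-activated kinase PKR) rose by 1.40 ± 0.47 and 2.36 ± 0.53. Ddx58 (RIG-I) and Ddx60 did not pass, at 57.8, 56.3 and 119 CPM and at 24.8, 24.1 and 45.1 CPM, although both LPS values exceeded both controls. Of the oligoadenylate synthetase family, whose products activate the nuclease RNase L, only Oasl2 had enough UMIs to be tested, and it rose (16.5, 54.3 and 227 CPM). Oas1a, Oas2, Oas3 and Oasl1 together had few UMIs, between 7 and 28 each after LPS and 0 or 1 in each control.

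Other members that rose strongly were Slfn2, a Schlafen gene linked to quiescence of immune cells, at 8.26, 12.1 and 242 CPM, and Lgals3bp, which encodes a secreted galectin-3 binding glycoprotein, at 41.3, 40.2 and 481 CPM. Their log2 fold changes were 4.41 ± 0.59 and 3.56 ± 0.52. Ifi44 rose from 8.26 and 10.1 to 85.1 CPM. The ADP-ribosyltransferase genes Parp9 and Parp14 rose by 1.60 ± 0.52 and 1.55 ± 0.48, but Dtx3l, the ubiquitin ligase partner of Parp9, did not pass at 41.3, 48.3 and 64.4 CPM. Xaf1, Rtp4, Trim30a and Phf11d rose by 1.34 to 1.84. Slfn5 and Ifi35 did not pass. Ifi27l2a was the exception in sign, at 33.0, 115 and 42.2 CPM (log2 fold change -1.04 ± 0.49, adjusted p = 0.177 in edgeR's test), and its LPS level lay between the controls. Slfn1 and Ms4a4c, with 1 and 2 UMIs in LPS endothelial-like cells, and the RNA sensor gene Dhx58, with 0, 7 and 26, were not tested.

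**Figure D3:**
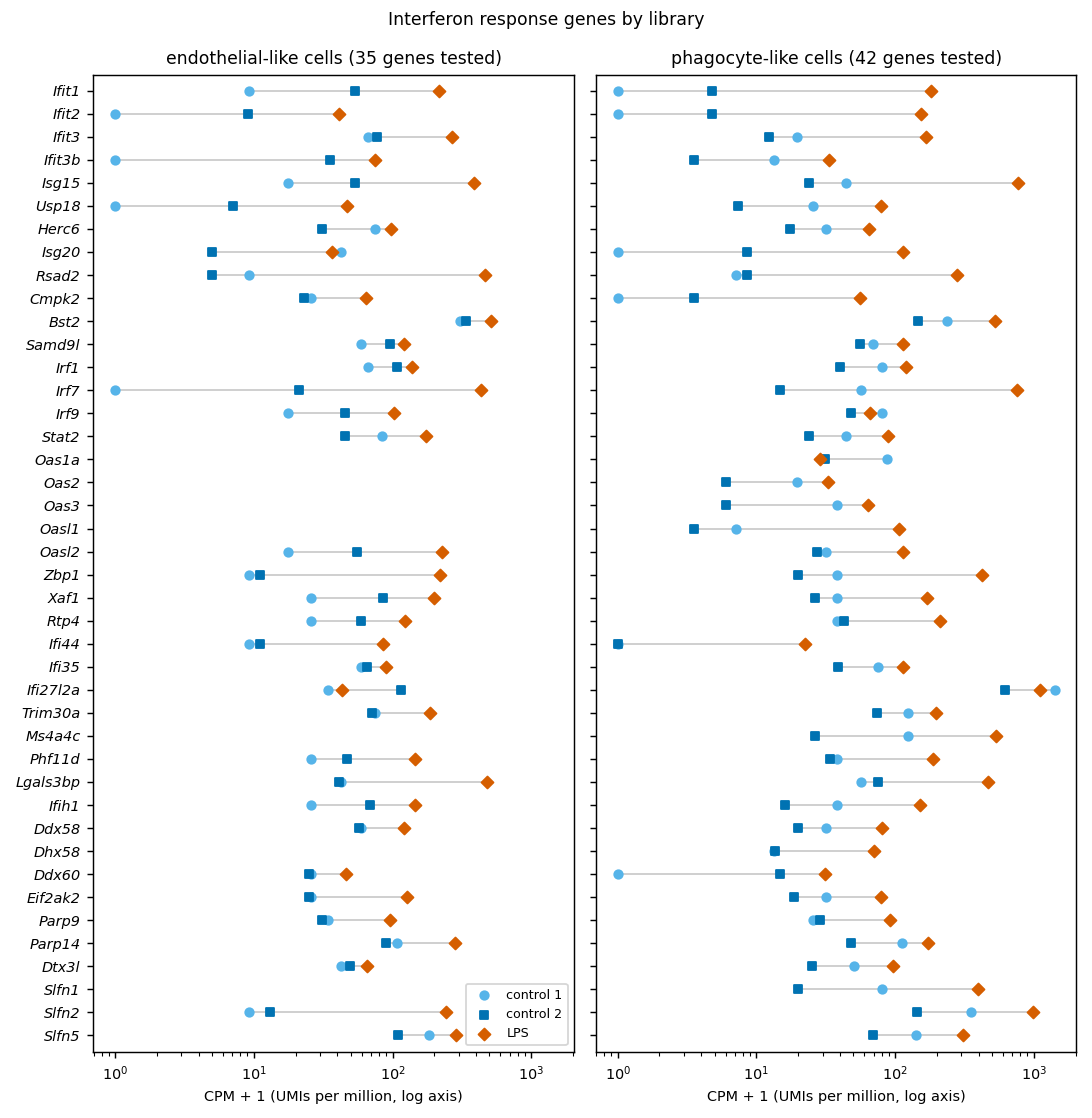
Level of each gene in control 1, control 2 and the LPS library (x axis, CPM + 1 on a log axis) in endothelial-like and phagocyte-like cells, for genes that passed the filter on low counts; rows are genes ordered by role and grey lines join the lowest and highest library. LPS lies to the right of both controls in 33 of 35 and 39 of 42 genes, 6 and 8 of which met the filter in the LPS library only, beside 36.5% and 35.5% of all genes.

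The number of calls in endothelial-like cells depended on the setting. Of the genes named next, Rsad2, Slfn2 and Zbp1 met the low count filter in the LPS library only and so had to differ. Over 13 alternative settings between 5 and 23 members rose, and Isg15, Lgals3bp, Rsad2, Slfn2 and Zbp1 passed in each of them. The fewest, 5 of the 29 members to which it gave an adjusted p, came from DESeq2's Wald test, beside 2.18% of all genes, and a single fit over the sums of all 4 classes gave 8, beside 1.07% of 11033 genes. In the other 11 settings 12 to 23 rose, beside 3.13% to 5.89% of all genes.

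Promoters of members were read for the interferon-stimulated response element, the motif bound by the complex that contains Stat2 and Irf9. RefSeq promoter windows (GRCm38.p6, from 250 bases before to 50 after the gene start) matched 34 of the 42 genes by symbol. Its letters, GAAA, any 2 bases and GAAA again, were searched on both strands and occurred in 15 of the 34 genes (44.1%) and in 3.99% of 27025 genes with a window. Below are the 250 bases before the gene start of Isg15 (chr4:156200819-156201068, minus strand), Rsad2 (chr12:26456453-26456702, minus strand), Ifit3 (chr19:34583279-34583528, plus strand) and Ifit3b (chr19:34607707-34607956, plus strand), each printed in the direction of its gene. They are shown because Isg15 and Rsad2 rose in both endothelial-like and phagocyte-like cells and because Ifit3 and Ifit3b show what near copies share. Capitals mark matches to the response element or its reverse complement.
Isg15: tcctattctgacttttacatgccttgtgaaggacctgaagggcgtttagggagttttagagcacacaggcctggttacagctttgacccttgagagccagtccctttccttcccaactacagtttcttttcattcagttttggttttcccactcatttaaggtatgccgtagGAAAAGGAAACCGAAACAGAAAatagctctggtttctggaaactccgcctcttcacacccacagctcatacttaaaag
Rsad2: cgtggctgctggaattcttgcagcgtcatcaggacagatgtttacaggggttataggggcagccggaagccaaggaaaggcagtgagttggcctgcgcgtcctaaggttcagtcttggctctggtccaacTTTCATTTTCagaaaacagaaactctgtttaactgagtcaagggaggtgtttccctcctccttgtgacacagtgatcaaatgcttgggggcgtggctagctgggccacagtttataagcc
Ifit3: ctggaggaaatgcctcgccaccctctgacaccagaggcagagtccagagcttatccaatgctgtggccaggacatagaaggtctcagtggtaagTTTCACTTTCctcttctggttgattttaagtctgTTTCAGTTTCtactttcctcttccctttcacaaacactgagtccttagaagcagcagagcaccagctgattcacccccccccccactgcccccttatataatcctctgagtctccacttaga
Ifit3b: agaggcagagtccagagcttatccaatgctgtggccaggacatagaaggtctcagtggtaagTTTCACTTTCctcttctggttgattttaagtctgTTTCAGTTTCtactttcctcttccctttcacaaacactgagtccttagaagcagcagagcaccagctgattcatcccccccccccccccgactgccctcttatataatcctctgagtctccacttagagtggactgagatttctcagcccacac
Isg15 carried 3 overlapping matches that began 78 to 66 bases before the gene start. Rsad2 carried 1 match in reverse. Ifit3 and Ifit3b carried the same pair of reverse matches, shifted by the offset of their annotated starts, and their 300-base windows were 94.5% identical over the 274 aligned bases. Irf7, Zbp1, Slfn2 and Lgals3bp are not among the genes with a match to the response element. Genes without a window could not be searched, and whether each of these had one is not stated here. A match is a stretch of letters and was not tested for binding.

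The second comparison took mononuclear phagocyte-like cells, the intimal myeloid cells of the series title. All 42 genes passed the filter on low counts and 23 rose, beside 2.85% of 8447 genes tested that rose, and none passed in the lower direction. Of the 42, 8 met the filter in the LPS library only and so had to differ. They were Ifit1, Ifit2, Ifit3b, Isg20, Rsad2, Oasl1, Ifi44 and Cmpk2. Of the other 34, 17 rose, beside 1.93% of all such genes, and 31 had an LPS level above both controls, beside 32.1%. The median log2 fold change of the 34 was 1.88, beside -0.09 for all such genes. Of the members that rose here, 16 also rose in endothelial-like cells, and the same overlap over all genes was not computed.

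Among transcription factors Irf7 alone passed. It measured 55.5, 13.9 and 760 CPM and rose by 4.76 ± 0.70 (adjusted p = 3.27e-09 in edgeR's test). Irf9 measured 80.1, 46.9 and 65.3 CPM, so its LPS level lay between the controls (0.14 ± 0.58). Stat2 and Irf1 measured 43.1, 22.8 and 87.3 CPM and 80.1, 39.3 and 119 CPM, above both controls, without passing.

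The Ifit genes were near absent from control phagocyte-like cells. Ifit1 had 0, 3 and 254 UMIs (0, 3.8 and 180 CPM), a ratio of 57.2 with a 95% counting interval of 19.3 to 279. Ifit2 had 0, 3 and 217 UMIs, a ratio of 48.9 (16.5 to 239). Ifit3 rose from 18.5 and 11.4 to 167 CPM, while Ifit3b, at 12.3, 2.53 and 32.6 CPM, did not pass. Free RNA could account for at most 22.3% of the LPS UMIs of Ifit1 and 26.9% of those of Ifit3b in this class.

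Isg15 rose from 43.1 and 22.8 to 763 CPM (4.68 ± 0.69) and Usp18 from 24.7 and 6.33 to 78.1 CPM. Rsad2 went from 6.16 and 7.60 to 278 CPM, a rise of 5.23 ± 0.72. Here its neighbour Cmpk2 and the nuclease gene Isg20 also rose. Cmpk2 had 0, 2 and 77 UMIs, a ratio of 26.0 (6.96 to 219), and Isg20 had 0, 6 and 160 UMIs. Bst2 measured 234, 144 and 525 CPM and did not pass.

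Further groups could be followed in phagocyte-like cells that were too thinly counted in endothelial-like cells. Of the oligoadenylate synthetase family, Oasl1 had 1, 2 and 149 UMIs, a ratio of 33.5 (11.3 to 165), and Oas3 and Oasl2 rose by 2.24 ± 0.68 and 2.02 ± 0.59. Oas2 did not pass, and Oas1a was the member with a negative estimate, at 86.3, 30.4 and 27.7 CPM (-0.85 ± 0.62, adjusted p = 0.674 in edgeR's test). Slfn1 rose from 80.1 and 19.0 to 398 CPM and Slfn2 from 351 and 143 to 993 CPM. Ms4a4c, which encodes a membrane protein of myeloid and lymphoid cells, rose from 123 and 25.3 to 534 CPM. In each of these the level in control 1 was above that in control 2.

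Zbp1 rose from 37.0 and 19.0 to 425 CPM and Lgals3bp from 55.5 and 74.7 to 466 CPM. The RNA sensors Ifih1 and Dhx58 (LGP2) rose by 2.79 ± 0.63 and 2.45 ± 0.65, Eif2ak2 passed narrowly (adjusted p = 0.0473 in edgeR's test) and Ddx58 narrowly missed (0.0514). Xaf1, Rtp4 and Phf11d rose by 2.39 to 2.52. Parp9, Parp14, Dtx3l, Herc6, Samd9l, Slfn5, Trim30a, Ifi35 and Ddx60 each lay above both controls, and none of them passed. Ifi44 had 0, 0 and 30 UMIs, at least 6.75-fold higher against a floor of 3 UMIs over both controls, and did not pass. Ifi27l2a had more UMIs than any other member in control phagocyte-like cells, at 1412 and 615 CPM, and its LPS level of 1104 CPM lay between them (0.13 ± 0.77).

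Under the stricter marker gate, 0 members and 0 of all genes passed in phagocyte-like cells, and over the other 12 settings 8 to 23 members rose, beside 1.13% to 3.51% of all genes. Ifit1, Ifit2, Irf7, Isg15, Lgals3bp, Rsad2, Slfn1 and Zbp1 passed in each of those 12. Of these, Ifit1, Ifit2 and Rsad2 met the low count filter in the LPS library only and so had to differ. The single fit over all 4 classes gave 18, beside 1.13% of all genes. The number of members with a log2 difference of at least 1 was 38, beside 14.1% of all genes, and fell to 29 without control 2.

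The third comparison tested whether phagocyte-like and endothelial-like responses differed, with library as a block. None of the 42 members passed, beside 0.0841% of 9509 genes with the larger phagocyte-like and 0.126% with the larger endothelial-like response. At an unadjusted p under 0.05 there were 4, Ifit1, Cmpk2, Isg20 and Ifit2, all with the larger phagocyte-like estimate, beside 2.44% of all genes with the larger phagocyte-like and 2.67% with the larger endothelial-like response at that threshold. The Ifit1 responses differed by 3.58 ± 1.16 on the log2 scale (adjusted p = 0.272 in edgeR's test) and those of Cmpk2 by 3.19 ± 1.16. Ifit1, Cmpk2, Isg20 and Ifit2 each met the low count filter of phagocyte-like cells in the LPS library only, with 0 UMIs in control 1. That favours a larger phagocyte-like estimate. Estimates were larger in phagocyte-like cells for 28 of 42 genes, beside 47.3% of all genes, with a median difference of 0.65. In simulated counts this test recovered 19% of 8-fold differences, so sizeable differences could go uncalled. Genes that passed in a single class are therefore not shown to differ between the classes.

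Fibroblast-like cells had no calls among the members in the chosen fit. Of 35 genes tested, 0 passed, beside 0.0678% of 5896 genes that rose. Of the 35, 20 met the low count filter in the LPS library only and so had to be higher there. Of the 15 that met it in a control, 13 had an unadjusted p under 0.05 with a higher LPS level, beside 7.1% of all such genes, and 14 had an LPS level above both controls, beside 33.0%. The median log2 fold change of the 15 was 2.30, beside -0.09 for all such genes. Other settings gave other counts over all members tested. DESeq2's Wald test called 9 of the 14 members to which it gave an adjusted p, beside 3.82% of all genes, and a single fit over all 4 classes 21, beside 1.24% of 11033 genes. In 8 further settings 31 to 33 members rose, beside 2.49% to 10.1% of all genes, and after subtraction of free RNA 18 rose, beside 3.63%. Without its legacy option edgeR called 0 members and 0 of all genes, with or without its robust spread.

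In these cells Isg15 measured 14.4, 32.0 and 1050 CPM, Ifit1 14.4, 34.9 and 760 CPM and Ifit3 57.8, 43.6 and 743 CPM. For Isg15, the adjusted p was 0.0652 in edgeR's test with a log2 fold change of 5.21 ± 0.49. Rsad2 had no UMI in either control and 149 after LPS, at least 39.4-fold higher against the floor of 3 UMIs over both controls. Usp18 (0, 0 and 72 UMIs), Ifi44 (0, 0 and 58), Cmpk2 (0, 0 and 42) and Oas2 (0, 0 and 33) were likewise seen after LPS only, at least 19.0-fold, 15.3-fold, 11.1-fold and 8.72-fold higher. Irf7 had 0, 2 and 295 UMIs, a ratio of 117 (32.1 to 970), and free RNA could account for at most 22.4% of its LPS UMIs. Of the tested members, Ifi27l2a had the 1 negative estimate, at 1098, 399 and 413 CPM (-0.80 ± 0.68).

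Lymphoid-like cells were not alike between groups. A UMI of the thymocyte or cycling genes Rag1, Rag2, Dntt, Ptcra, Mki67 or Top2a was found in 135 of 160 and 1507 of 1664 control cells and in 55 of 88 LPS cells. Of 40 members tested, 15 rose, beside 0.519% of 9628 genes that rose. Of the 40, 14 met the filter in the LPS library only, and 6 of the 15 that rose were among them. Of the 26 that met it in a control, 9 rose, beside 0.284% of all such genes, and all 26 lay above both controls, beside 34.9%. The median log2 fold change of the 26 was 2.86, beside -0.11 for all such genes. Without cells holding those UMIs, 25, 157 and 33 cells remained, 32 members were tested and 21 rose, beside 4.15% of all genes, 11 of them among the 15. Counts of calls ran from 0 (Leiden clusters, the stricter gate, or haemoglobin and Gm42418 left out, each with 0 of all genes called) to 37 (no filter on low counts, beside 2.69% of all genes), and the single fit over all 4 classes gave 27, beside 1.74% of all genes.

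Xaf1, a pro-apoptotic factor, measured 11.2, 11.8 and 217 CPM in lymphoid-like cells, Zbp1 30.7, 24.2 and 357 CPM and Usp18 8.18, 4.57 and 149 CPM. Each rose, by 4.22 ± 0.31, 3.72 ± 0.34 and 4.73 ± 0.43. Ifit1, Ifit3, Irf9, Oasl2, Ifih1, Ddx60, Parp9, Rtp4, Trim30a, Slfn1 and Lgals3bp also rose, by 2.91 to 4.93. Irf7 rose from 2.05 and 6.68 to 220 CPM, although free RNA could account for at most 36.4% of its LPS UMIs. Ifi27l2a, whose LPS level was not above both controls in the other 3 classes, stood at 65.5, 72.4 and 489 CPM here (2.82 ± 0.33, adjusted p = 0.0569 in edgeR's test). Phf11d had 7 LPS UMIs. Lymphoid-like cells had its lowest mean per barcode and so set its ceiling, which by definition covers all of these UMIs and says nothing about free RNA.

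**Figure D4:**
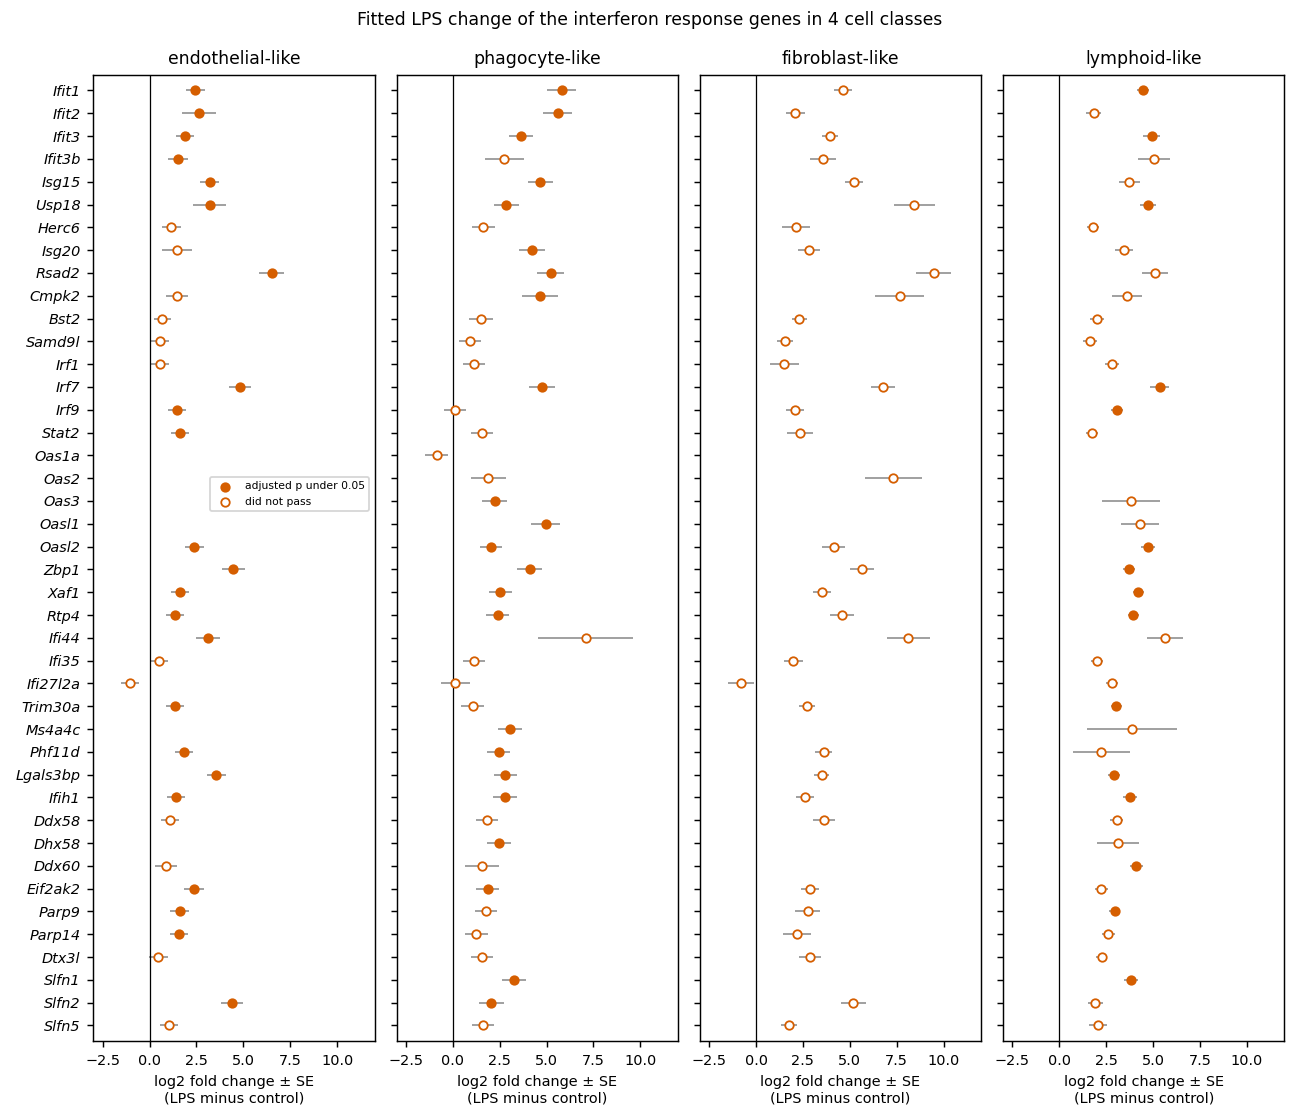
Fitted log2 fold change (LPS minus control, x axis, bars ± SE) of each tested gene in 4 cell classes; filled points passed at an adjusted p under 0.05 and open points did not. The numbers that passed were 23, 23, 0 and 15, with 1 negative estimate each in endothelial-like, phagocyte-like and fibroblast-like cells and 0 in lymphoid-like cells.

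Across classes, 34 members were tested in all 4, and 31 of these had an LPS level above both controls in every class. The exceptions were Ifi27l2a, Irf9 and Isg20. In a single class 35.5% to 38.3% of all genes lay above both controls, and the share in all 4 was not computed. In endothelial-like, phagocyte-like, fibroblast-like and lymphoid-like cells, 6, 8, 20 and 14 tested members met the low count filter in the LPS library only. Those had to be higher there. Irf7, Ifit1, Ifit3, Ifih1, Lgals3bp, Oasl2, Rtp4, Usp18, Xaf1 and Zbp1, 10 in all, rose in endothelial-like, phagocyte-like and lymphoid-like cells. Of all genes, 5.81%, 2.85% and 0.519% rose in these classes taken singly, and the share that rose in all of them was not computed. The comparisons in the 4 classes share the same 3 libraries, and classes of a library share its free RNA, so they do not repeat one another independently.

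Upstream of these genes, the interferons themselves were not captured. Of 15 interferon ligand genes, 14 had no UMI in any barcode of any library, among them every listed gene of interferon alpha, beta, epsilon, kappa, zeta and lambda. The 1 exception was Ifng, with 0, 22 and 17 UMIs among 4940996, 20069697 and 21864072. At 0 UMIs a gene may still have been present below the depth of these libraries, or at other times than 18 h.

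The receptor chains were detected in both classes. Ifnar1 measured 41.3, 44.2 and 44.3 CPM in endothelial-like and 43.1, 74.7 and 56.8 CPM in phagocyte-like cells. Ifnar2, its partner chain, measured 74.3, 117 and 140 CPM and 191, 142 and 164 CPM. None of the 5 receptor genes tested passed in either class. These were Ifnar1, Ifnar2, Ifngr1, Ifngr2 and Il10rb, the last shared with interleukin-10. Ifngr1 had estimates of -0.69 ± 0.48 and -0.86 ± 0.65, and Ifnlr1 had no UMI in either class.

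Among kinases and other signalling genes downstream of the receptors, Tyk2, which sits on Ifnar1, fell in endothelial-like cells from 49.5 and 42.2 to 11.4 CPM (-1.94 ± 0.69, adjusted p = 0.0481 in edgeR's test), as did 4.95% of all genes tested there. In phagocyte-like cells Tyk2 measured 49.3, 30.4 and 19.9 CPM and did not pass. Jak1, Jak2 and Stat3 did not pass in either class, with estimates of 0.88 to 1.28 in endothelial-like and 0.20 to 0.88 in phagocyte-like cells.

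Among 17 genes of sensing and induction, 3 of 9 tested rose in endothelial-like cells and 1 of 16 in phagocyte-like cells, beside 5.81% and 2.85% of all genes tested. In endothelial-like cells these were Cd14, the LPS co-receptor, at 8.26, 8.04 and 44.3 CPM, Tmem173 (STING), at 8.26, 16.1 and 80.1 CPM, and Ikbke, a kinase that activates Irf3 and Irf7, at 16.5, 8.04 and 51.5 CPM. Ikbke also rose in phagocyte-like cells, from 0 and 8.86 to 68.8 CPM. In both controls Cd14, Tmem173 and Ikbke lay under the low count filter (20.6 CPM in endothelial-like and 14.0 CPM in phagocyte-like cells). They met it in the LPS library only and so had to be higher there to be tested. Of 10 feedback genes, 4 of 7 tested rose in endothelial-like and 3 of 8 in phagocyte-like cells, beside those same shares. Socs3, a suppressor of cytokine receptor signalling, had 1, 2 and 99 UMIs in endothelial-like cells, a ratio of 14.6 (4.85 to 71.99), and went from 18.5 and 34.2 to 260 CPM in phagocyte-like cells. Tnfaip3 (A20) rose in both classes, by 2.22 ± 0.51 and 3.89 ± 0.65. Ptpn2 and Rnf125 rose in endothelial-like cells, and Socs1, with 0, 0 and 45 UMIs, was at least 10.1-fold higher in phagocyte-like cells. Socs3 in endothelial-like and Socs1 in phagocyte-like cells likewise met the filter in the LPS library only. The split by filter was not computed for these lists.

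Of the 51 other interferon-stimulated genes listed, 11 of 39 tested rose in endothelial-like and 14 of 47 in phagocyte-like cells, beside 5.81% and 2.85% of all genes, and 0 passed in the lower direction in either. Leading the endothelial-like ones were Ifi211 and Ifi204, DNA-binding proteins of the p200 family, with 0, 0 and 74 and 0, 0 and 70 UMIs, at least 10.9-fold and 10.3-fold higher. Slfn8 rose from 0 and 8.04 to 46.5 CPM and Samhd1, which degrades deoxynucleotides, from 24.8 and 46.3 to 285 CPM. In phagocyte-like cells the same family led, with Ifi205 at 1, 1 and 376 UMIs (ratio 127, 34.9 to 1052) and Ifi213 at 1, 1 and 135 UMIs (ratio 45.6, 12.4 to 380). Ifitm1, which blocks virus entry at membranes, had 0, 0 and 60 UMIs and was at least 13.5-fold higher, and Ly6a (Sca-1) rose by 3.90 ± 0.64. Endothelial-like Ifi211, Ifi204 and Slfn8 and phagocyte-like Ifi205, Ifi213 and Ifitm1 met the low count filter in the LPS library only. Those had to be higher there to be tested, and the split by filter was not computed for this list.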

How the data were processed

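Cells of 3 libraries were measured with 10x 3' v3 chemistry. Values deposited by the authors are unnormalized UMI counts for each gene and barcode; Cell Ranger 3.1, R 4.2.1, Seurat 4.2.0 and mm10 are named, per the submitters' processing notes. Total counts were 4940996, 20069697 and 21864072 in 1269, 4813 and 6000 barcodes. How barcodes were selected is not given in the sources.

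Barcodes needed at least 500 UMIs, 300 genes and a mitochondrial share of at most 15%. A class needed at least 4 distinct markers, 4 times the library's background share, a Poisson p under 1e-05 and no second class passing; barcodes that passed for several classes (15, 81 and 26) were left out, and no doublet caller was run. Haemoglobin-rich barcodes (at least 50%) were removed first. UMIs were summed per library and class and tested with edgeR 4.0.16 (quasi-likelihood, TMM, filterByExpr, Benjamini-Hochberg over all genes, 0.05) in R 4.3.3, 2 controls against 1 LPS library. That leaves 1 residual degree of freedom, with the LPS pool taken to vary as much as the controls. CPM are scaled by TMM. Intervals (95%, exact binomial) and the floor of 3 UMIs cover counting error only. Replicate numbers of the controls follow record order. Libraries shared 1 to 6 barcodes, 0 of them in the tested classes.

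Simulated counts with a dispersion of 0.1 gave back 95% of 8-fold and 41% of 4-fold changes in endothelial-like sums of 7361 genes. DESeq2 1.42.0, leidenalg 0.10.2 and other alternatives are described in the closing section. The members and lists were chosen with earlier results of these data known. The gate's marker minimum and excess were chosen among 5 settings (3 to 5 markers, 3 to 5 times background) from cell counts and marker shares per class, and the Leiden resolution of 2 among 1, 2 and 3 because all 4 classes were then found in every library; removal of haemoglobin-rich barcodes was decided with member levels in view. All 42 members are described by role; those with at least 20 UMIs in a class could be given in full. Of other pathway genes, receptors, ligands with a UMI, kinases and other signalling genes were named (1 listed gene and 1 motif are not reported here), and up to 4 per list with the largest fitted change among those that passed. Gene positions are from GENCODE vM21 (GRCm38), and promoters from RefSeq (GRCm38.p6).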

Additional observations from a re-analysis of the deposited data

How the results depend on the processing

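The number of members that rose depended on the processing. In endothelial-like cells, against 23 in the chosen fit, DESeq2's Wald test gave 5, 1 fit over the sums of all 4 classes 8, subtraction of the free RNA ceiling 12 and the stricter gate 15. In phagocyte-like cells, against 23, these gave 8, 18, 13 and 0, and edgeR without its legacy option gave 14, with or without the robust spread. In fibroblast-like cells, against 0, DESeq2's size factors, the robust spread, the stricter gate and leaving out haemoglobin and Gm42418 each gave 33, no filter on low counts, at least 1000 UMIs per barcode and Leiden clusters each 32, the 10% mitochondrial limit 31, the joint fit 21, free RNA subtraction 18 and DESeq2's test 9. In lymphoid-like cells, against 15, no filter gave 37, free RNA subtraction 28, the joint fit 27, DESeq2's test 26, the robust spread 24 and edgeR without its legacy option 9; the stricter gate, Leiden clusters and leaving out haemoglobin and Gm42418 each gave 0. The robust, joint and non-legacy fits were chosen after seeing the data and after the first counts of calls proved unstable; edgeR's default was kept. The robust and legacy options, run in all combinations on the chosen sums, on the stricter gate and without haemoglobin and Gm42418 (12 fits per class), gave 15 to 24 members higher in endothelial-like, 0 to 23 in phagocyte-like, 0 to 33 in fibroblast-like and 0 to 27 in lymphoid-like cells. The sums in the joint fit share libraries. edgeR's prior degrees of freedom were infinite in endothelial-like and phagocyte-like cells but 4 and 3.94 in the fibroblast-like and lymphoid-like classes; the cause of each change in calls was not tested.

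The count of members with a log2 difference of at least 1 stayed within 1.5 times its main value in every alternative run. Without each control it was 27 to 28 in endothelial-like (26 with both) and 29 to 39 in phagocyte-like cells (38 with both). It was 33 to 34 in fibroblast-like (34 with both) and 40 in lymphoid-like cells. With both controls, 15.4%, 14.1%, 19.2% and 13.9% of all genes in these classes, in that order, reached that difference. Of the tested members, 6, 8, 20 and 14 met the low count filter in the LPS library only, which favours a large difference. The value of Isg20 in endothelial-like cells, log2 difference from the mean of the controls left in, reversed to -0.19 without control replicate 2 and was 2.63 without control replicate 1. No member passed the difference between phagocyte-like and endothelial-like responses in any of the 6 alternatives run. No paired analysis was possible because the labels give the libraries no replicate numbers. Depth limits the Oas family, Slfn1 and Ms4a4c in endothelial-like cells, and 28 and 27 cells carry the endothelial-like and fibroblast-like values of control 1.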

Other observations

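Haemoglobin-rich barcodes, which belong to no comparison above, also held UMIs of the interferon response genes. Isg15 reached a mean of 2.85 UMIs per barcode in the 693 such barcodes of the LPS library, Isg20 2.04 and Rsad2 1.49, against 0.41, 0.0995 and 0.329 in the Gm42418-rich LPS barcodes. Ifit1 went the other way, with 0.294 against 0.461 UMIs per barcode, and Irf7 held 0.501 against 0.535. Of 42 members, 8 were higher per barcode in haemoglobin-rich than in Gm42418-rich LPS barcodes, and the share over all genes was not computed. In control 2, its 316 haemoglobin-rich barcodes held 0.82 UMIs of Isg20, 0.44 of Rsad2 and 0.161 of Isg15. Isg20 and Rsad2 UMIs were thus present in haemoglobin-rich barcodes of untreated mice as well. With 1 LPS library these values carry no test.

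Ifi27l2a was high in the few adipocyte-like barcodes, where 8 control 2 barcodes held 223 UMIs and 8 LPS barcodes held 342, or 11580 and 9370 CPM with haemoglobin and Gm42418 left out. On the same scale it stood at 689 and 1252 in phagocyte-like cells of those libraries, on 486 and 1556 UMIs, and at 120 and 44.2 in endothelial-like cells. Among the smaller LPS classes, 19 neutrophil-like barcodes held a mean of 87.1 UMIs of the 42 genes per barcode, 20 mesothelial-like ones 51.8 and 16 B cell-like ones 60.5; control 1 and control 2 had 3 and 1 neutrophil-like barcodes, too few to compare.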
